A study of Mus musculus with 6 samples.

Results

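Transcripts of 10 secreted acute-phase proteins, Saa1, Saa2, Saa3, Saa4, Orm1, Orm2, Orm3, Lcn2, Hp and Hpx, were followed in mouse livers after hepatic ischemia and reperfusion (I/R), with and without ginsenoside Rk2. They were chosen by name, as the serum amyloid A (SAA) family, the orosomucoids, and the secreted binders of siderophores, haemoglobin and haem. The deposited count table lists 15454 genes and holds all 10 of them, and all 10 passed the filter on low counts that left 12411 genes for testing. RNA came from 6 livers of male C57BL/6 mice, 8 to 10 weeks old, each of which had undergone warm I/R of 75% of the liver. In the I/R group 3 mice received vehicle. In the I/R+Rk2 group 3 mice received ginsenoside Rk2, a saponin derived from ginseng, 2 days ahead of the operation and again as reperfusion began. The study names its high-dose Rk2 group for the sequenced livers, which the sample titles do not state. The dose and the times of ischemia and reperfusion are not reported here. All livers were injured and sham livers were not analysed here, so the comparison of I/R+Rk2 with I/R, made to learn how Rk2 alters gene expression in the injured liver, gives the difference that goes with Rk2 in injured liver and not the effect of I/R itself.

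The acute-phase response is the change in the proteins that the liver secretes after injury or infection. Interleukin-6 and related cytokines act on hepatocytes through gp130, JAK kinases and STAT3, interleukin-1 and tumour necrosis factor act through NF-kB, and C/EBP factors act with both on the promoters of positive acute-phase genes, while transcripts such as albumin and transthyretin fall. SAA proteins bind to high-density lipoprotein, orosomucoids are lipocalins that carry lipophilic ligands, lipocalin-2 (Lcn2) sequesters iron-loaded bacterial siderophores, haptoglobin (Hp) captures free haemoglobin and hemopexin (Hpx) captures free haem. Hepatocytes make most of these proteins, and Lcn2 and Saa3 are also made by myeloid and other cells.

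The genes lie in clusters (GENCODE M21 annotation of GRCm38, the same assembly as mm10, which the submitters' processing notes name). The SAA genes stand together on chromosome 7, where Saa3 spans chr7:46711998-46715700, Saa4 spans chr7:46727998-46732603, Saa1 spans chr7:46740497-46742980 and Saa2 spans chr7:46751790-46754313. Saa2 is on the plus strand and the other three are on the minus strand. The orosomucoids follow one another on the plus strand of chromosome 4, with Orm1 at chr4:63344560-63348163, Orm3 at chr4:63356162-63359511 and Orm2 at chr4:63362449-63365878. Hpx lies elsewhere on the minus strand of chromosome 7 (chr7:105591613-105600137), Lcn2 on the minus strand of chromosome 2 (chr2:32384633-32388252) and Hp on the minus strand of chromosome 8 (chr8:109575128-109579172). None of the 10 genes shared exon positions with another annotated gene.

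Near-identical copies matter for these values because a short read can fit more than 1 of them. The coding sequences of Saa1 and Saa2 were identical at 348 of 366 aligned bases (95.1%), against 76.0% for Saa1 and Saa3 and 67.7% for Saa1 and Saa4. Among the orosomucoids, Orm1 and Orm2 were identical at 89.9% of coding bases, Orm2 and Orm3 at 88.3% and Orm1 and Orm3 at 86.4%. Of all stretches of 50 bases in the Saa1 transcript, 13.2% also occurred in Saa2, and 20.4% of those in Orm1 occurred in Orm2. A stretch of exon 3 shows how little separates Saa1 from Saa2. The 7 capitals in each line below mark the bases at which these 90 coding bases differ.
Saa1 coding, chr7:46741305-46741394, minus strand: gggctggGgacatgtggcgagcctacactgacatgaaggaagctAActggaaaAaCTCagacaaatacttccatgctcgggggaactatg
Saa2 coding, chr7:46753418-46753507, plus strand: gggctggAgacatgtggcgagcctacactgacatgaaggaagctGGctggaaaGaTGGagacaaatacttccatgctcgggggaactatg

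The same length of exon 2 separates Orm1 from Orm2 at 20 bases, which are again in capitals. The single values of Saa1 and Saa2, and of the orosomucoids, are therefore given together with the sum over their copies.
Orm1 coding, chr4:63345090-63345179, plus strand: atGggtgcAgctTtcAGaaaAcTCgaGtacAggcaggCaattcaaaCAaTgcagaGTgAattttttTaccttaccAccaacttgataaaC
Orm2 coding, chr4:63362965-63363054, plus strand: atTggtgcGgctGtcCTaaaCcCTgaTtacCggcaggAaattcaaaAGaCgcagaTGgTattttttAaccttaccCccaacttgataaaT

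The bases just before the transcription start were examined for the letters of binding motifs, since most of the genes moved in the same direction. RefSeq windows on GRCm38.p6 were at hand for 8 of the 10 genes, all but Orm1 and Hp, and the 250 bases upstream of each start were searched on both strands. The C/EBP motif TTGCNNAA occurred in 8 of 8 windows, against 9.56% of 32851 windows of the same length from all genes. The 8 are not independent, as Saa1 and Saa2 hold it at nearly the same place (-182 and -183), as do Orm2 and Orm3 (-120 and -121). The Lcn2 window, upstream of its RefSeq start, lay within the GENCODE span of Lcn2, with 197 of its 250 bases in an annotated exon. Its match, at -216, is therefore not upstream of the gene in that annotation. A loose form of the NF-kB motif (GGG, 3 free bases, T, 1 free base, CC) occurred in the windows of Saa1 (at -78 from the start) and Saa2 (at -79). It occurred in 14.9% of all windows, and a match to it need not be an NF-kB site. The STAT motif TTCNNNGAA occurred in 0 of 8 and in 7.02% of all windows. The TATA motif TATAAA occurred in Orm2 and Orm3, and in 12.4% of all windows. These are matches of letters, with no measurement of binding. Of the windows searched, 5 are shown without bases that lie in an annotated exon. Matches to the C/EBP, loose NF-kB and TATA patterns are in capitals.
Saa1 upstream, chr7:46742981-46743230, minus strand: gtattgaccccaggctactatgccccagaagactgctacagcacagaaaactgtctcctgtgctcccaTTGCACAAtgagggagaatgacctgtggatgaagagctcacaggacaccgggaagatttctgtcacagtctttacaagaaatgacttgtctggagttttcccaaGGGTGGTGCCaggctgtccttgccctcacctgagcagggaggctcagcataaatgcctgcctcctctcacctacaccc
Saa2 upstream, chr7:46751583-46751789, plus strand: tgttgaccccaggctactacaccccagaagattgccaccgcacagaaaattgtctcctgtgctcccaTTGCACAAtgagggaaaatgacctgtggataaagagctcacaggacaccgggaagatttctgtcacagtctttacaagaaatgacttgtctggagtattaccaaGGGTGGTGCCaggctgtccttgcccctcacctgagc
Saa3 upstream, chr7:46715701-46715926, minus strand: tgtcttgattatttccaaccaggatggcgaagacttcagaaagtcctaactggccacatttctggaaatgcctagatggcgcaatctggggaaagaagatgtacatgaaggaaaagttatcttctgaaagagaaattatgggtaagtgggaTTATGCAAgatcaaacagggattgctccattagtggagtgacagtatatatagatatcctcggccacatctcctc
Saa4 upstream, chr7:46732604-46732853, minus strand: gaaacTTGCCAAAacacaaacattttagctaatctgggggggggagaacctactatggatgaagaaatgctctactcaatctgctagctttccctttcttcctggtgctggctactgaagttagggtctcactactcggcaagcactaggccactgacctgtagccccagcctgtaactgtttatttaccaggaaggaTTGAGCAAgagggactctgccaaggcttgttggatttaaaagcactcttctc
Orm2 upstream, chr4:63362199-63362448, plus strand: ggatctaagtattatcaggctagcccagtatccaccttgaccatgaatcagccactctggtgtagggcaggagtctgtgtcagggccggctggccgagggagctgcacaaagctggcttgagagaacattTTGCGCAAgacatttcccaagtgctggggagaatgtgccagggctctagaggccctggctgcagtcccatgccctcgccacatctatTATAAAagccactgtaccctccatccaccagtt

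In the printed windows Saa1 and Saa2, which were both lower in I/R+Rk2, carried the same C/EBP letters and the same match to the loose NF-kB pattern. Their upstream bases were identical at 238 of 249 positions (95.6%). Saa4, Orm2 and Hpx, which did not pass the test, held C/EBP matches as well, so that motif was present both in genes that passed and in genes that did not. The upstream bases of Orm2 and Orm3 were identical at 89.0% of aligned positions.

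**Figure D1:**
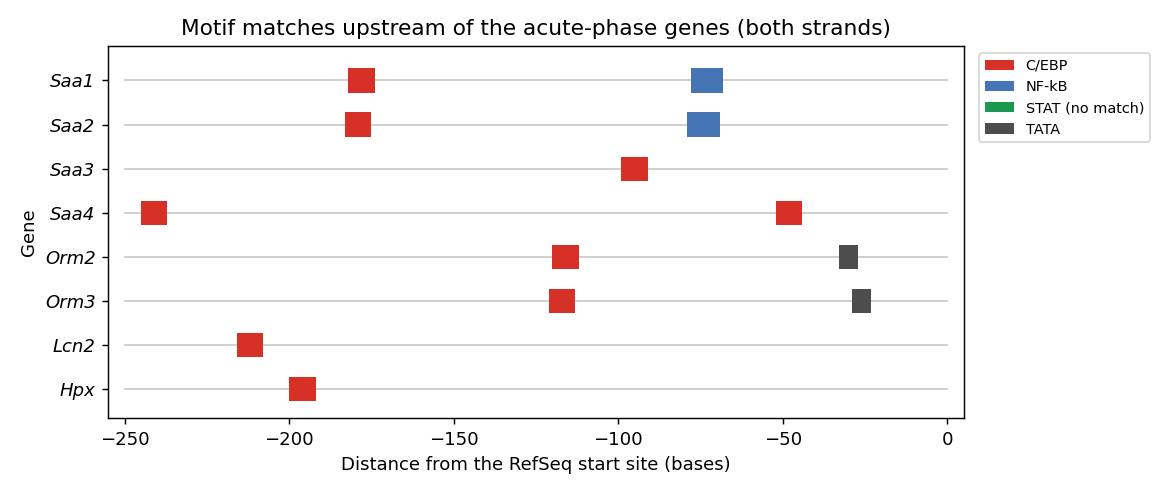
Positions of motif matches (coloured blocks, width to scale) in the 250 bases upstream of the RefSeq start site of 8 acute-phase genes; the horizontal axis gives the distance from the start in bases. Each of the 8 genes has a C/EBP block, only Saa1 and Saa2 have a block for the loose NF-kB pattern, and no STAT match was found in any of the 8 windows.

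The libraries held between 16809613 and 35618074 counts. The 10 genes together took 1.52% to 2.14% of the counts in the I/R livers and 0.663% to 1.07% in the I/R+Rk2 livers, so the groups did not overlap. The tissue label was checked against 19 hepatocyte markers. All 19 were tested, and albumin alone took 5.05% to 8.35% of the counts. Libraries of a group differed by more than counting noise, so each was taken as 1 replicate. The sample titles do not say that each library came from a different mouse. The study's methods speak of RNA from each liver sample, and the spread between replicates is taken as that between mice.

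By edgeR's quasi-likelihood test with Benjamini-Hochberg adjustment over the 12411 genes, 7 of the 10 acute-phase genes were lower in I/R+Rk2 at an adjusted p below 0.05 and 0 were higher. Among all genes tested, 23.7% were lower and 20.3% were higher by the same rule, 43.9% in all. With a fold change above 2 added, the limit the study set for these livers, 4 of 10 passed (Saa1, Saa2, Saa3 and Lcn2), against 11.4% of all genes lower and 3.17% higher. In 8 of the 10 genes, all but Saa4 and Hpx, every I/R+Rk2 liver lay below every I/R liver, which held for 30.3% of all genes. The median log2 fold change was -0.67 over the 10 genes and -0.01 over all genes tested. With library size alone in place of TMM scaling, the median of all genes moved to -0.17 and the calls over all genes to 3481 lower and 1320 higher, from 2938 and 2516, and 4 of the 10 still passed with a fold above 2. In whole liver, fewer cells that express a gene and less RNA per cell cannot be told apart.

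**Figure D2:**
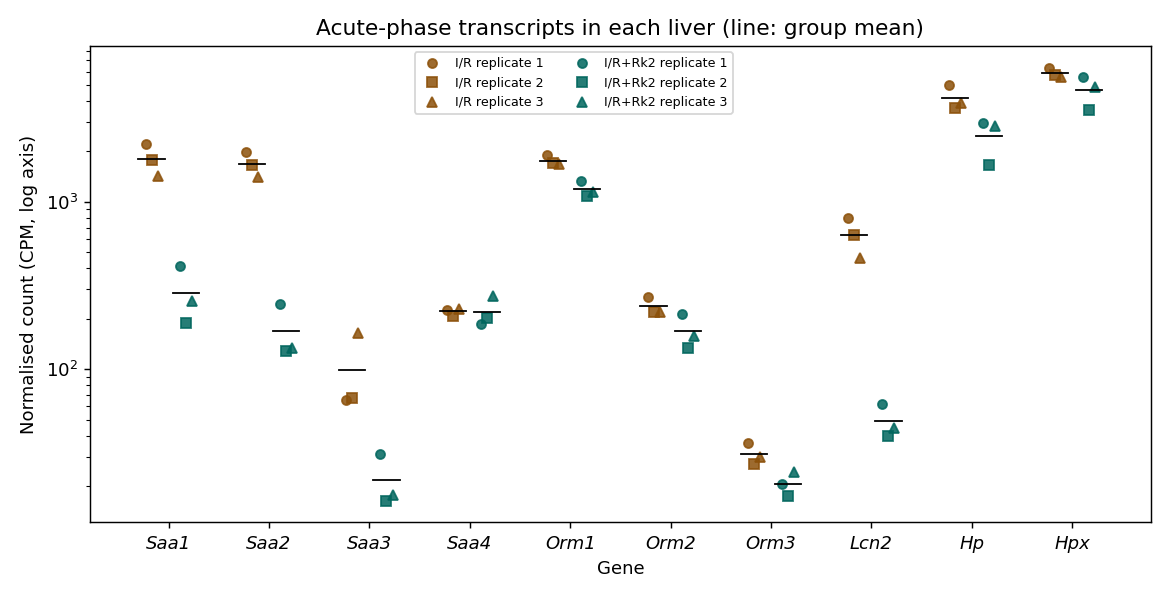
Normalised counts (CPM, counts per 1000000 of the TMM-scaled library, log axis) of the 10 genes in each liver, with brown symbols for the 3 I/R livers, green symbols for the 3 I/R+Rk2 livers and a line at each group mean. The groups are far apart for Saa1, Saa2 and Lcn2, lie closer for the orosomucoids and Hp, and overlap for Saa4 and Hpx.

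Saa1 and Saa2 encode the major inducible SAA proteins of plasma. Saa1 had 2218, 1770 and 1425 CPM in I/R replicates 1 to 3 and 413.5, 188.9 and 256.4 CPM in I/R+Rk2 replicates 1 to 3. Every treated liver was below every vehicle liver by a wide gap. The means were 1804 ± 398 and 286 ± 115 CPM (SD, n = 3), a 6.30-fold decrease with a log2 fold change of -2.66 (with its standard error, SE, of 0.31, adjusted p = 0.00109, edgeR). Saa2 had 1974, 1657 and 1408 CPM in the I/R livers and 244, 129.1 and 133.4 CPM in the I/R+Rk2 livers. Again the groups were well separated, and the lowest I/R liver was several times the highest I/R+Rk2 liver. The log2 fold change of Saa2 was -3.31 (SE 0.29, adjusted p = 0.00045, edgeR), a 9.95-fold decrease. Adding both rows gave 3484 ± 682 CPM in I/R and in I/R+Rk2 455 ± 179 CPM. That was a 7.66-fold decrease (log2 fold change -2.94, SE 0.30, adjusted p = 0.000709, edgeR). The sum does not depend on how reads were split between the copies if each shared read was counted once. How shared reads were counted is not given in the sources used here.

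Saa3 encodes an SAA protein that is made outside hepatocytes too, by macrophages among others. Its level was 65.85, 67.59 and 165.2 CPM in the I/R livers and 31.06, 16.43 and 17.75 CPM in the I/R+Rk2 livers. I/R replicate 3 stood well above the other livers of its group, but the groups did not overlap. The decrease had a log2 fold change of -2.19 (SE 0.43, adjusted p = 0.0064, edgeR), or 4.58-fold, and it was -1.62 with an adjusted p of 0.0109 when I/R replicate 3 was left out (0.0286 at most over all alternatives).

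Saa4 encodes the constitutive SAA protein, whose plasma level is known to move little in inflammation. It had 227.4, 207.6 and 230.1 CPM in the I/R livers and 187.2, 203.7 and 272.8 CPM in the I/R+Rk2 livers. The groups overlapped, and the highest and lowest of the 6 livers were both treated ones. The log2 fold change was -0.0033 (95% confidence interval -0.35 to 0.34, adjusted p = 0.988, edgeR), with a sign that changed with the scaling.

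Of the 3 orosomucoids, the alpha-1-acid glycoproteins, Orm1 and Orm3 were lower in I/R+Rk2, by 1.48-fold and 1.5-fold, and Orm2 did not pass the test. Orm1, the most abundant of them here, had 1893, 1707 and 1675 CPM in the I/R livers and 1328, 1088 and 1145 CPM in the I/R+Rk2 livers. The livers of each group were close to one another and the groups did not overlap. Orm1 went from 1758 ± 118 to 1187 ± 125 CPM (SD, n = 3), a log2 fold change of -0.57 (SE 0.11, adjusted p = 0.00731, edgeR). Orm3 had 36.13, 27.28 and 29.9 CPM in I/R and in I/R+Rk2 20.59, 17.41 and 24.32 CPM. These groups came close to each other without overlapping. The log2 fold change of Orm3 was -0.59 (SE 0.16, adjusted p = 0.0218, edgeR). That call was lost without I/R replicate 1 (adjusted p = 0.0873), I/R replicate 3 (0.0517) or I/R+Rk2 replicate 2 (0.0626), in a range of 0.00608 to 0.0873 over all alternatives.

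Orm2 had 271.2, 219.9 and 220.9 CPM in the I/R livers and 214.4, 134.6 and 159 CPM in the I/R+Rk2 livers. The highest treated liver lay just under the lowest vehicle livers. Its log2 fold change was -0.49 (95% confidence interval -0.91 to -0.06), and the edgeR adjusted p was 0.0627, so it did not pass the threshold here. It did pass in DESeq2 (0.0352), with library size alone (0.0376), with 2 of the 3 limma fits to FPKM and without I/R+Rk2 replicate 1 (0.00853). The adjusted p ran from 0.00853 to 0.19 over all alternatives. In simulated data with few changed genes, drawn from the edgeR fit, 18.7% of DESeq2's calls were false. That share need not hold for these livers. The sum of the 3 orosomucoids was 2201, 1955 and 1926 CPM in I/R and in I/R+Rk2 1562, 1240 and 1328 CPM. The summed groups did not overlap. Their log2 fold change was -0.56 (SE 0.12, adjusted p = 0.0101, edgeR), a 1.47-fold decrease.

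Lcn2, an antibacterial lipocalin also known as neutrophil gelatinase-associated lipocalin, had the largest fold decrease of the 10 genes. It had 798.6, 635.9 and 464.8 CPM in the I/R livers and 62.29, 39.73 and 44.52 CPM in the I/R+Rk2 livers. The lowest vehicle liver was several times the highest treated liver. The log2 fold change was -3.70 (SE 0.26, adjusted p = 0.00024, edgeR), a 12.96-fold decrease. Of the 12411 genes tested, Lcn2 had the 74th smallest p, Saa2 the 177th and Saa1 the 567th.

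Hp, which binds haemoglobin, had 4959, 3657 and 3881 CPM in the I/R livers and 2948, 1659 and 2818 CPM in the I/R+Rk2 livers. The groups did not overlap, but I/R replicate 1 was well above its group and I/R+Rk2 replicate 2 well below its own. Hp fell with a log2 fold change of -0.75 (SE 0.24, adjusted p = 0.0375, edgeR), a 1.68-fold decrease. The call was lost without I/R replicate 1 (adjusted p = 0.128), I/R replicate 2 (0.0554), I/R replicate 3 (0.0725), I/R+Rk2 replicate 2 (0.06) or I/R+Rk2 replicate 3 (0.0587), in a range of 0.00473 to 0.128 over all alternatives. Hpx, which binds haem, had 6333, 5687 and 5533 CPM in I/R and in I/R+Rk2 5562, 3511 and 4824 CPM. I/R+Rk2 replicate 1 lay within the range of the I/R livers. The log2 fold change of Hpx was -0.34 (95% confidence interval -0.76 to 0.09, adjusted p = 0.168, edgeR).

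**Figure D3:**
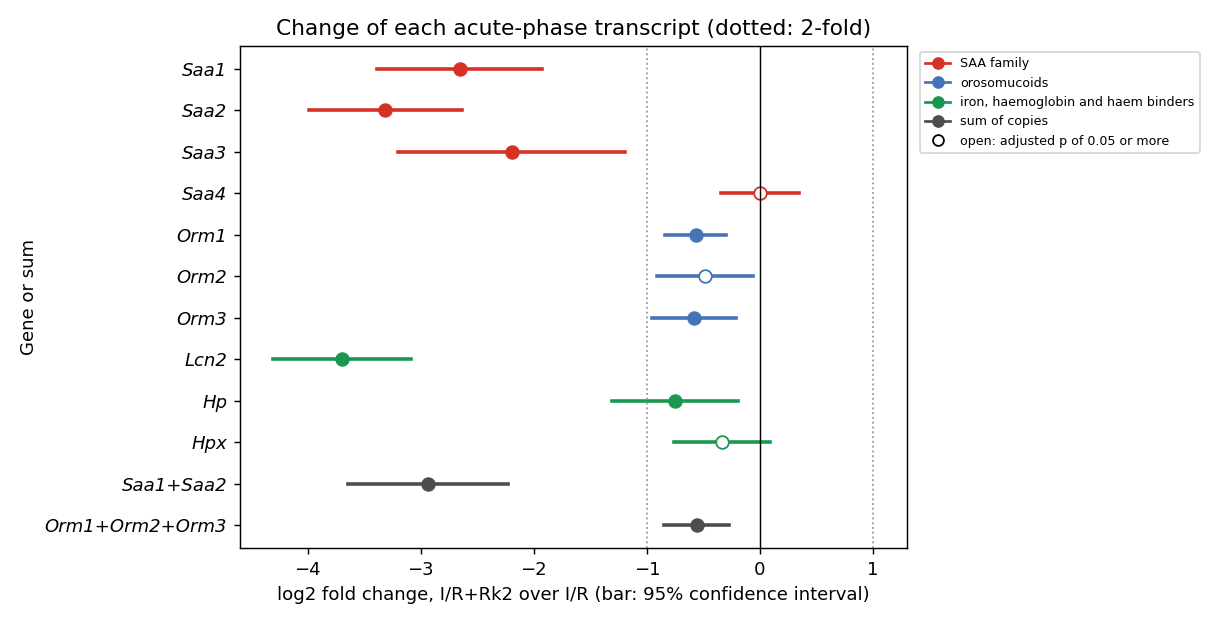
Log2 fold change of I/R+Rk2 over I/R with its 95% confidence interval (bars) for each of the 10 genes and for the sums of near-identical copies, coloured by gene group, with open circles where the edgeR adjusted p was 0.05 or more and dotted lines at a 2-fold change. Saa1, Saa2, Saa3 and Lcn2 lie to the left of the 2-fold line with their whole intervals, the points of Orm1, Orm3 and Hp lie between it and 0, and the intervals of Saa4 and Hpx cross 0.

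The livers also differed within their groups in a way that ran across the genes. I/R replicate 1 was the highest of its group for 8 of the 10 genes, and the other 2, Saa3 and Saa4, were highest in I/R replicate 3. In the treated group, replicate 1 was the highest for 8 of 10 and replicate 2 the lowest for 9 of 10. These values share the scaling of each library and are a description.

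Whether the genes of a pair moved by the same factor was examined by their log2 ratio within each liver, for 7 pairs. With 3 livers against 3, the exact permutation test cannot give a p below 0.1, so none of the 7 could pass. Saa2 over Saa1 was -0.09 ± 0.08 in I/R and -0.75 ± 0.20 in I/R+Rk2 on the log2 scale (SD, n = 3). Every treated liver had less Saa2 for its Saa1 than any vehicle liver, with an exact permutation p of 0.1 and 0.175 after adjustment over the 7 pairs (two-sided). Saa4 over Saa1 went from -3.0 ± 0.34 to -0.31 ± 0.72 with no overlap, and Lcn2 over Hp from -2.74 ± 0.28 to -5.64 ± 0.31 with no overlap, each with the same exact permutation p of 0.1. Hpx over Hp went from 0.50 ± 0.14 to 0.92 ± 0.15, again without overlap and at the same p. The other 3 ratios overlapped between the groups. Saa3 over Saa1 differed by 0.60 (exact permutation p = 0.4), Orm2 over Orm1 by 0.06 (exact permutation p = 0.7) and Orm3 over Orm1 by -0.01 (exact permutation p = 1). The overlap of Saa3 over Saa1 rested on I/R replicate 3, which had -3.11, while I/R replicates 1 and 2 had -5.07 and -4.71. When that liver was left out, the difference was 1.19 with no overlap (exact permutation p = 0.2, the smallest that 2 livers against 3 can give), and it was 0.21 when I/R replicate 1 was left out and 0.39 when I/R replicate 2 was.

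**Figure D4:**
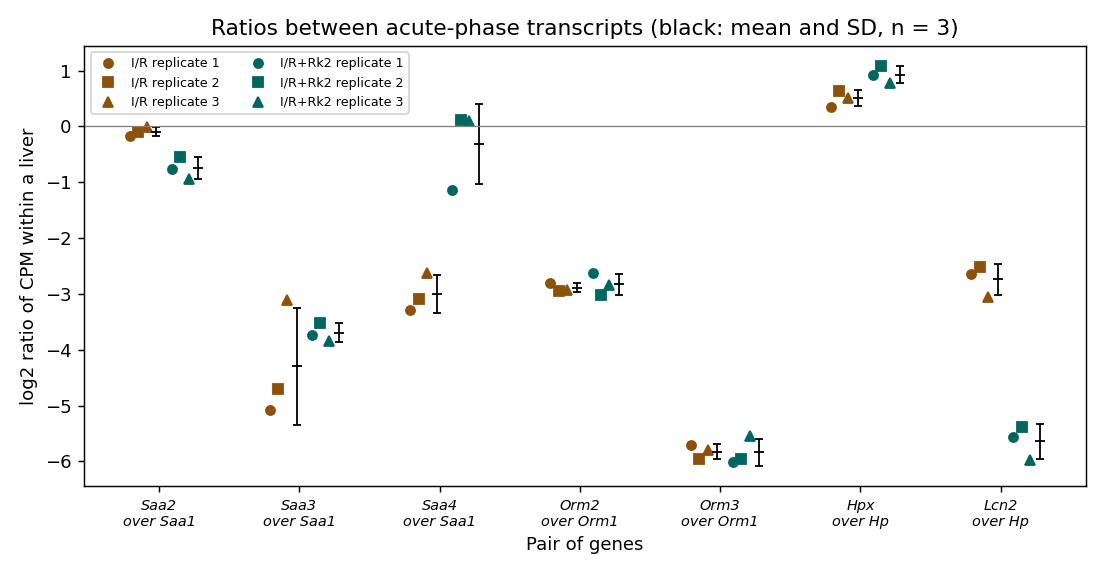
Log2 ratio of CPM between 2 acute-phase genes within each liver, for 7 pairs, with brown symbols for I/R, green symbols for I/R+Rk2 and the group mean and SD (n = 3) in black. The ratios Saa2 over Saa1, Saa4 over Saa1, Hpx over Hp and Lcn2 over Hp separate the groups, and those within the orosomucoids and Saa3 over Saa1 overlap.

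Levels were compared between genes only per length, on the FPKM scale (fragments scaled to transcript length and to the mapped fragments of the library). In the I/R livers the order of mean FPKM was Hpx (3952), Hp (3140), Saa1 (2879), Saa2 (2690), Orm1 (2260), Lcn2 (697), Orm2 (306), Saa3 (175), Saa4 (105) and Orm3 (40.2). The ranges of neighbours in that order overlapped between livers except at the steps from Orm1 to Lcn2, from Lcn2 to Orm2 and from Saa4 to Orm3. Within each I/R liver the order held for all neighbours but Hp over Saa1 and Orm2 over Saa3, which held in 2 livers. In the I/R+Rk2 livers the order was Hpx (2787), Hp (1647), Orm1 (1363), Saa1 (399), Saa2 (244), Orm2 (195), Saa4 (93.5), Lcn2 (46.9), Saa3 (34.8) and Orm3 (23.8). The ranges separated there at the steps from Hpx to Hp, from Orm1 to Saa1, from Orm2 to Saa4 and from Saa4 to Lcn2. Within each treated liver the order held for all neighbours but Hp over Orm1, which held in 2 livers. Lcn2 thus moved from above Orm2, Saa3 and Saa4 to below Orm2 and Saa4. Among all genes ranked by mean FPKM, Saa1 went from place 49 to 159, Saa2 from 50 to 251 and Lcn2 from 104 to 1137, while Hpx went from 40 to 46 and Hp from 45 to 58.

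For Saa1, Orm1, Lcn2 and Hp, the genes with the most similar pattern over the 6 livers were found by the root mean square difference in centred log2(CPM + 1) among 6962 genes of at least 10 CPM on average. Nearest to Saa1 were Cxcl2, a neutrophil chemokine (0.169), Lilrb4a (0.176) and Chd9 (0.237). Nearest to Lcn2 were Steap4, a metalloreductase (0.208), Saa2 (0.21) and Itgam, the CD11b integrin chain of myeloid cells (0.245). Nearest to Orm1 were Dhx15 (0.0275), Ipo4 (0.0279) and Lars (0.0309), and nearest to Hp were Golga3 (0.109), Plcxd2 (0.135) and Naa25 (0.146). The measure takes in the change between the groups, so genes with a similar fold change come out near. Shared regulation or a shared cell source was not tested.

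Genes around the 10 are given by list, beside the 23.7% lower, 20.3% higher and median of -0.01 over all genes tested. Of 31 other positive acute-phase genes, 17 were lower in I/R+Rk2, 3 were higher (1 with library size alone and 0 to 1 in limma fits to FPKM) and 11 did not pass, with a median log2 fold change of -0.51. With a fold above 2, 12 were lower and 0 were higher, against 11.4% lower and 3.17% higher over all genes tested. Steap4 fell from 1091 ± 195 to 92.4 ± 11.8 CPM (log2 fold change -3.56, adjusted p = 0.000198, edgeR). The metallothioneins Mt1 and Mt2, which bind zinc and copper, fell with log2 fold changes of -1.99 and -1.998, and Serpina3g, a protease inhibitor of a family with close copies, fell by 1.48. Both pentraxins were lower, as serum amyloid P (Apcs) fell from 341 ± 39.1 to 135 ± 27.8 CPM (adjusted p = 0.00124) and C-reactive protein (Crp) from 588 ± 54.5 to 424 ± 55.03 CPM (adjusted p = 0.0202). Hamp, which encodes the iron hormone hepcidin, had 435 ± 47.9 and 494 ± 119 CPM in overlapping groups (adjusted p = 0.427).

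Negative acute-phase genes went the other way. Of 12, 10 were higher in I/R+Rk2, 0 were lower and 2 did not pass, the median log2 fold change was 0.38, and in 12 of 12 every treated liver lay above every vehicle liver, against 27.1% of all genes. Ttr, which carries thyroxine, rose from 3862 ± 363 to 8067 ± 775 CPM (log2 fold change 1.06, adjusted p = 0.00132, edgeR). Igf1 rose by 0.67 on the log2 scale, Serpina6, the corticosteroid carrier, by 0.63, and the retinol carrier Rbp4 by 0.43. Albumin (Alb) rose from 49230 ± 4366 to 80120 ± 10010 CPM (adjusted p = 0.0167). The number higher was 4 with library size alone, 3 to 5 in limma fits to FPKM and 4 to 7 when a liver was left out (5 and 6 for I/R replicates 1 and 3, 4 and 5 for I/R+Rk2 replicates 2 and 3). Library size alone and the limma fits each put the median at 0.23.

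Among 12 cytokines that act on the hepatic acute phase, 11 were tested. With a fold above 2, 7 were lower and 1 was higher, at a log2 fold change of 1.03. Over all genes tested, 11.4% were lower and 3.17% were higher by that rule. At any fold, 7 were lower and 2 were higher, with a median log2 fold change of -1.95 (-0.97 in limma on FPKM without a filter). The number higher was 1 with library size alone and in each limma fit, 0 when I/R replicate 1 or I/R+Rk2 replicate 2 was left out, and 1 when I/R replicate 2 or I/R+Rk2 replicate 3 was. Il22 was listed at 0 FPKM in all 6 livers. Il1b fell from 99.9 ± 2.91 to 11.4 ± 5.16 CPM (log2 fold change -3.13, adjusted p = 0.000568, edgeR) and Il6, at a far lower level, from 4.61 ± 1.32 to 1.17 ± 0.425 CPM (-1.95, adjusted p = 0.00421). Osm, a cytokine of the interleukin-6 family, and Il33, an alarmin of the interleukin-1 family, fell with log2 fold changes of -3.59 and -4.01. Il11 had 1.38 ± 0.271 CPM in I/R and no I/R+Rk2 liver held a count of it, so against 3 counts per library it was at least 10.36-fold lower. Tnf had 2.33 ± 0.978 and 1.10 ± 0.542 CPM in overlapping groups and did not pass (adjusted p = 0.0813).

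Of 12 cytokine receptors, 6 were lower and 2 were higher (median log2 fold change -0.64, and -0.99 to -1.15 in limma fits to FPKM). Only 1 was higher with library size alone, or when any I/R liver or I/R+Rk2 replicate 2 was left out. The oncostatin M receptor Osmr fell from 24.7 ± 1.295 to 6.40 ± 1.47 CPM (adjusted p = 0.000458, edgeR), Ifngr1 fell by 1.21 on the log2 scale, and the tumour necrosis factor receptors Tnfrsf1a and Tnfrsf1b fell by 1.04 and 0.84. Of 26 signal transducers and transcription factors, 13 were lower and 3 were higher (median -0.37), with 1 higher with library size alone and in each limma fit. The NF-kB family members Nfkb1, Nfkb2 and Relb fell by 1.19, 1.39 and 1.59. Stat3, the main transducer of interleukin-6 signals, fell from 195 ± 8.55 to 115 ± 10.44 CPM (adjusted p = 0.00123), Socs3, its feedback inhibitor, from 161 ± 11.7 to 114 ± 12.1 CPM (adjusted p = 0.00931) and Cebpb from 238 ± 7.66 to 168 ± 24.8 CPM (adjusted p = 0.0129). Cebpd had 42.54, 8.39 and 46.8 CPM in I/R and in I/R+Rk2 23.45, 20.22 and 20.33 CPM, so I/R replicate 2 lay below the treated livers and the gene did not pass (adjusted p = 0.388).

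Receptors and partners of the 10 proteins moved in both directions. Of 21 listed, 18 were tested, of which 8 were lower and 6 were higher. The median log2 fold change was 0.02, and -0.14 with library size alone. Those higher included the haemoglobin transcripts Hba-a1, Hba-a2, Hbb-bs and Hbb-bt, which have near-identical copies. Hmox1, which degrades haem, fell from 294 ± 24.4 to 46.8 ± 6.12 CPM (log2 fold change -2.65, adjusted p = 0.000197, edgeR). Fpr2 and Tlr2, receptors through which SAA can act, fell with log2 fold changes of -3.06 and -2.34. Cd163, the macrophage receptor for the haptoglobin-haemoglobin complex, fell from 4.04 ± 0.584 to 1.53 ± 0.3003 CPM (adjusted p = 0.00357). Hpn, a protease of the hepatocyte surface, rose by 0.58 on the log2 scale (adjusted p = 0.0024).

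**Figure D5:**
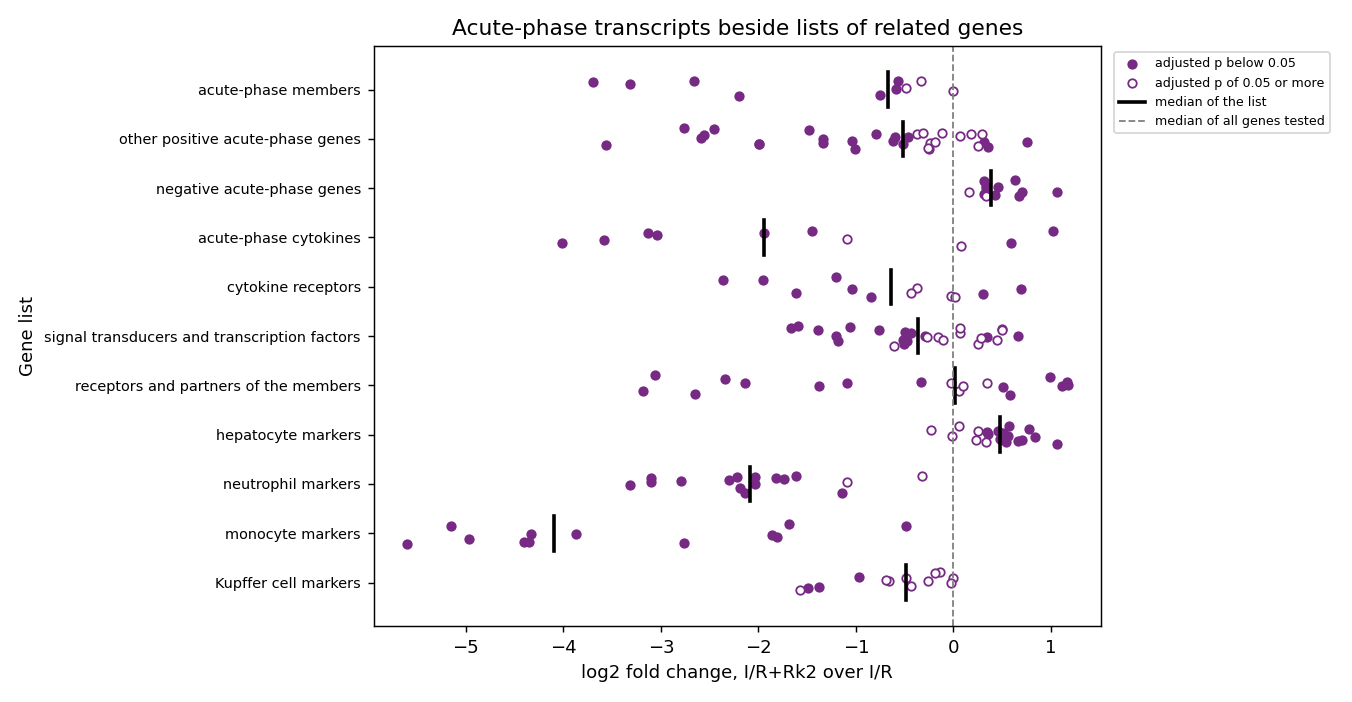
Log2 fold change of I/R+Rk2 over I/R for the tested genes of each list (filled where the edgeR adjusted p was below 0.05, scattered vertically within a row for legibility), with the median of the list as a black bar and the median of all genes tested as a dashed line. Il11, at 0 counts in each treated liver, is not drawn, and negative acute-phase genes and hepatocyte markers lie mostly to the right of 0 while the cytokine, neutrophil and monocyte rows lie mostly to the left.

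Cell type markers are given in the same way, beside the 23.7% lower and 20.3% higher over all genes tested. Of 19 hepatocyte markers, 13 were higher in I/R+Rk2 and 0 were lower (median log2 fold change 0.48), with a summed level of 47880 to 50500 FPKM in the I/R livers and 63360 to 72480 FPKM in the treated ones. Of 20 neutrophil markers, 16 were tested and 14 of them were lower (median log2 fold change -2.09), with summed levels of 755 to 1033 FPKM against 132 to 333 FPKM. The most abundant were S100a9, at 392 and 85.6 FPKM, and S100a8, at 308 and 67.7 FPKM, while the granule genes Camp and Mpo were listed at 0 in all 6 livers and Elane and Ltf had at most 3 and 9 counts in a liver. All 12 monocyte markers were lower, with a median log2 fold change of -4.10. Their sum was 569 to 669 FPKM against 251 to 285 FPKM, of which Fn1, which hepatocytes also make, held 307 and 215 FPKM on average, and Lyz2 was the next most abundant at 126 and 31.3 FPKM. Of 13 Kupffer cell markers 3 were lower, near the share over all genes, and 0 were higher (median log2 fold change -0.49). The Kupffer cell sum was 86.6 to 121 FPKM against 64.5 to 82.4 FPKM. Neither of the most abundant, Slc40a1 and C1qb, passed (edgeR adjusted p = 0.884 and 0.286). The lists shared genes with those above, 3 of the hepatocyte, 2 of the neutrophil, 2 of the Kupffer cell and 1 of the monocyte markers. The part of neutrophils, monocytes and Kupffer cells in the falls of Lcn2, Saa3, Hp and the other genes was not tested.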

How the data were processed

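Total RNA of each liver (250 ng) was made into libraries with an MGIEasy kit. Per the submitters' processing notes and the study's methods, reads were checked with FastQC 0.11.5, aligned with HISAT2 2.2.1 to mm10 and assembled with StringTie 1.3.3. The annotation and the strand setting are not given in the sources used here. The authors deposited whole-number counts per gene and FPKM, and every column was matched to a sample by name.

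Counts were analysed with edgeR 4.0.16 in R 4.3.3 (filterByExpr defaults, TMM scaling, quasi-likelihood F test, no covariates, Benjamini-Hochberg adjustment). All 6 libraries entered the test, which was tested on simulated data and recovered 73% of genes changed by 1 and 100% of those changed by 2 on the log2 scale, with 5.46% of its calls false. DESeq2 recovered 87% and 100%, with 18.7% of its calls false. Only 100 genes were changed at each size, so these false shares need not hold where far more genes differ. The simulated counts were drawn from edgeR's own means and dispersions, which can favour edgeR over DESeq2. DESeq2 1.42.0, limma 3.58.1 on log2(FPKM + 1) and log2(FPKM + 0.1), other scalings, other filters, a replicate block and leaving out each liver were alternatives. Ratios used CPM with a pseudocount of 0.1 and an exact permutation test. A count of 0 was read as up to 3 counts per library (0.0888 to 0.184 CPM), for counting error only.

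The genes and lists were chosen with earlier results of these data known. Named were the 10 genes, the 4 smallest p of each pathway list with Il6, Il1b, Tnf, Stat3, Socs3, Cebpb, Cebpd, Crp, Apcs, Hamp, Cd163, Hmox1 and Alb, the 2 most abundant markers of each cell type, and the 3 nearest patterns of Saa1, Orm1, Lcn2 and Hp. Camp, Mpo, Elane and Ltf were named after their values were seen.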

Additional observations from a re-analysis of the deposited data

How the results depend on the processing

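The falls of Saa1, Saa2, Saa3, Lcn2 and Orm1 kept their direction and passed under all 17 alternatives, and between 5 and 8 of the 10 genes were lower, always 4 of them by more than 2-fold and 0 higher. Orm2 passed with library size alone (log2 fold change -0.65), in DESeq2 (-0.47) and in limma on log2(FPKM + 1) (-0.66) or log2(FPKM + 0.1) (-0.67), and ran from -0.70 to -0.34 with 1 liver left out. Under the same treatment Orm3 ran from -0.71 to -0.45, Hp from -0.90 to -0.53 and Saa4 from -0.18 to 0.10. Saa4 was 0.0102 with relative log expression scaling, 0.0101 in DESeq2 and 0.0493 with upper-quartile scaling. Over all genes tested, livers with the same replicate number did not deviate together (correlations -0.0313, 0.0477 and -0.0243). Replicate 1 was still the highest of its group for 8 of the 10 acute-phase genes in both groups. Whether the numbers pair the livers for these genes was not tested. A replicate block in edgeR gave Orm2 a log2 fold change of -0.51 (adjusted p = 0.0177) and changed no other call among the 10 genes. The ratio of Orm3 over Orm1 changed sign with a pseudocount of 1 CPM (0.00666) and ran from -0.157 to 0.0699 with 1 liver left out, and that of Orm2 over Orm1 from -0.0371 to 0.155.

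Values for lists moved with library size alone, with limma on FPKM and with single livers left out, and the cause was not tested. With library size alone the medians were -0.68 for other positive acute-phase genes, 0.23 for negative ones, -0.80 for cytokine receptors, -0.52 for transducers and transcription factors and -0.14 for receptors and partners, and the numbers higher were 1, 4, 1 and 1 for the first 4 of these and 1 for cytokines. In limma on log2(FPKM + 1), log2(FPKM + 0.1) and log2(FPKM + 1) without a filter, in that order, the medians were -0.65, -0.65 and -0.63 for positive genes, 0.23, 0.23 and 0.23 for negative ones, -1.72, -2.69 and -0.97 for cytokines, -1.02, -1.15 and -0.99 for receptors of cytokines, -0.45 (-0.445), -0.46 and -0.45 (-0.445) for transducers and, without a filter only, -0.12 for partners. The numbers higher were 1, 1 and 0 for positive genes, 5, 5 and 3 for negative ones, and 1 each time for cytokines and for transducers. Requiring 10 counts in every library gave cytokines a median of -1.71. With 1 liver left out, the medians ran from -0.59 to -0.47 for positive genes, from -2.12 to -1.71 for cytokines (highest -1.705) and from -0.81 to -0.59 for their receptors, and the numbers higher from 4 to 7 for negative genes, 0 to 2 for cytokines and 1 to 2 for their receptors.

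Over all genes, those higher numbered 1320 with library size alone, 1172, 1148 and 1124 in the limma fits, 1645 when I/R replicate 3 was left out and 1640 when I/R+Rk2 replicate 2 was. By more than 2-fold, 808 and 839 were lower in limma on log2(FPKM + 1) with and without the filter, and 246 were higher with library size alone and 93, 154 and 82 in the limma fits.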

Other observations

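Markers of cell types that are not known as main sources of the acute-phase proteins moved in different directions. Over all genes tested, 23.7% were lower and 20.3% were higher. All 6 erythroid markers tested, of 8 listed, were higher in I/R+Rk2 (median log2 fold change 1.14), and their summed level was 2108 to 3682 FPKM in the I/R livers and 4403 to 5594 FPKM in the treated ones. The haemoglobin transcripts Hba-a2 and Hbb-bs, whose product haptoglobin binds and which have near-identical copies, rose by 1.17 and 0.99 on the log2 scale (edgeR adjusted p = 0.0114 and 0.0159). Both, with Hba-a1 and Hbb-bt, also stand in the list of receptors and partners. Endothelial markers were split, 4 of 10 lower and 4 higher, and Clec4g of the liver sinusoid rose from 19.7 ± 2.33 to 38.6 ± 3.73 CPM (adjusted p = 0.00134) while Fcgr2b did not pass (0.346). Of 10 stellate cell markers 3 were lower and 0 were higher, and Dcn fell from 104 ± 18.0 to 68.2 ± 0.831 CPM (adjusted p = 0.009) while Colec11 did not pass (0.8). Of 8 cholangiocyte markers 3 were lower and 1 was higher, with Spp1 falling from 162 ± 29.7 to 70.6 ± 14.1 CPM (adjusted p = 0.00296) and Sox9 not passing (0.927). The part of these cells in the changes of the acute-phase genes was not tested.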
